A study of Helianthus annuus with 12 samples.

Results

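The age pathway microRNAs miR156, miR157 and miR172 were described in roots and leaves of R5 seedlings, a sunflower (Helianthus annuus) cultivar, with and without simulated drought. Members were the entries typed as mature microRNA or hairpin whose name began with miR156, miR157 or miR172 and was not followed by a further digit. The rule found 25 of the 163 known microRNA names in the table, which listed 15900 named small RNA features. Of the 25, 15 names belonged to miR156, 2 to miR157 and 8 to miR172, and all were typed as mature. A count minimum of 10 in at least 3 libraries was met by 15 of the 25 names, of which 11 were miR156, 2 miR157 and 2 miR172. The other 10 names held few counts and were kept in the family sums.

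MicroRNAs are short RNAs that guide an Argonaute protein to matching messenger RNAs, which are then cleaved or translated less. In Arabidopsis, maize and other flowering plants miR156 and the closely related miR157 repress SPL transcription factors, and they are high in juvenile shoots. SPL proteins activate miR172 genes, and miR172 represses AP2-like transcription factors that delay adult traits and flowering, so the balance of miR156 to miR172 is a common readout of plant age.

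Small RNA was sequenced from roots and leaves of seedlings at the stage of 4 leaves, with 3 libraries per organ and treatment and 12 in all. The PEG groups stood in water holding 15% PEG 6000 (polyethylene glycol, which binds water and makes it harder for roots to take up) for 24 h, and the control groups stood in distilled water for the same time. PEG roots, control roots, PEG leaves and control leaves all came from the same cultivar, described by the submitters as tolerant of drought, and no sensitive cultivar was analysed here. The labels do not say that libraries of a group came from separate plants, or how many plants were pooled, so p-values measure only the spread between these libraries. The labelled organ could not be checked against marker genes, because the table holds small RNAs and no messenger RNAs.

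Total counts per library ranged from 20829490 to 33426228. Known microRNAs made up 1.92% to 2.29% of all counts in PEG roots and 0.550% to 1.85% in control roots, against 7.80% or more in PEG leaves and 8.87% to 9.33% in control leaves. Control root library 3 stood apart, with the lowest share of known microRNAs (0.550%) and the highest share of tRNA fragments (0.123%). Ribosomal RNA fragments held 1.16% to 2.46% of counts in roots and 0.131% to 0.453% in leaves, and the part of RNA quality in the results below was not tested. The labels mention no molecular identifiers, so all counting intervals cover counting error only. In whole organs, fewer cells of a type that makes a microRNA and less of it per cell cannot be told apart.

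Names in the table are borrowed from many plant species. The name miR157a-5p stands for 65 deposited species names, of which 55 are called miR156 and 10 miR157, and one of them is sunflower's own han-miR156c. The name miR157d stands for 14, of which 12 are called miR156. The name miR156a-5p stands for 151 species names, all called miR156, and includes han-miR156a and han-miR156b. Near-identical names can divide the reads of one molecule between them, so the value of a single name is uncertain, and the border between miR156 and miR157 in these data follows the table's names.

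The ratio of miR156 plus miR157 counts to miR172 counts, taken within each library and therefore free of any scaling between libraries, was lower in roots than in leaves. In PEG roots it was 141 in library 1, 28.7 in library 2 and 54.4 in library 3. In control roots it was 50.9, 91.7 and 23.8. In PEG leaves the ratio was 407, 512 and 841, and in control leaves it was 686, 395 and 455. Every root library lay below every leaf library, while PEG and control libraries overlapped in both organs. The scaled levels of 82.3% of microRNA families under PEG and 79.8% in control seedlings also did not overlap between organs. The ratio was not compared with ratios of other families. Of the miR156 plus miR157 counts, the 3′ arm name miR156i-3p_1, described below, took 1.85% to 6.85% in roots and 14.9% to 30.1% in leaves.

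The counting intervals were narrower than the distance between organs. The highest root value, 141 in PEG root library 1, had a 95% exact (Clopper-Pearson) interval of 114 to 178, and the lowest leaf value, 395 in control leaf library 2, had one of 316 to 501. Geometric means were 60.4 in PEG roots and 48.1 in control roots, against 560 in PEG leaves and 498 in control leaves. Over both treatments the mean log2 ratio of roots minus that of leaves was -3.29, a 9.80-fold lower ratio in roots. A two-sided exact permutation test with treatments kept as strata gave p = 0.005, the smallest that its 400 arrangements allow, and 0.035 after Benjamini-Hochberg adjustment over the 7 comparisons of the ratio.

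Within one treatment the organ difference was 9.27-fold under PEG and 10.4-fold in control seedlings (exact permutation p = 0.1 each, the smallest that 3 against 3 libraries allow). Leaving out each library in turn gave log2 differences from -3.83, without PEG root library 1, to -2.68, without PEG root library 2, under PEG, and -3.84 to -2.86 in control seedlings. Without the name of highest mean CPM on each side, miR157a-5p and miR172a_2, the difference over both treatments was -2.19 on the log2 scale. With the mean of log2(CPM + 1) over names in place of the family sums it was -1.46 (exact permutation p = 0.01).

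PEG left no detectable difference in the ratio. The mean log2 ratio was 5.92 ± 1.16 in PEG roots and 5.59 ± 0.98 in control roots (SD, n = 3 each), a difference of 0.33 (exact permutation p = 0.7). It was 9.13 ± 0.54 in PEG leaves and 8.96 ± 0.41 in control leaves, a difference of 0.17 (exact permutation p = 0.6). The difference between these PEG effects was 0.16 (exact permutation p = 0.875). Over both organs, kept as strata, PEG minus control was 0.25 (exact permutation p = 0.58, where the smallest possible was 0.005). With 3 libraries per group these tests could not go below 0.1 within an organ, so a p above the threshold does not show that the groups were alike.

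**Figure D1:**
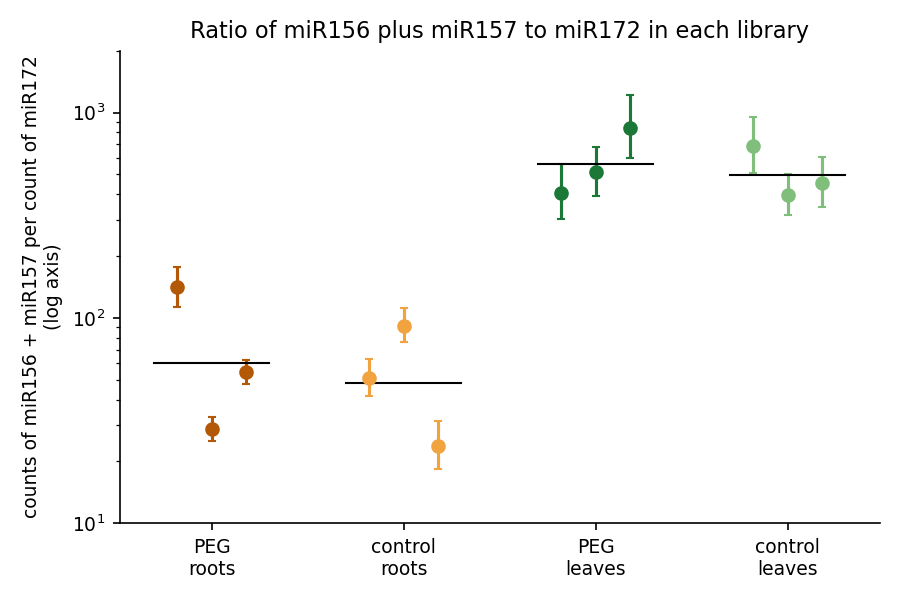
Counts of miR156 plus miR157 per count of miR172 in each of the 12 libraries (log axis), with 95% exact counting intervals as bars and the geometric mean of each group as a line. The 6 root libraries sit between 23.8 and 141 and the 6 leaf libraries between 395 and 841, with PEG and control libraries interleaved in both organs.

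The miR156 family, the repressors of SPL transcription factors, held 6821, 3784 and 6179 counts in PEG roots and 3398, 6385 and 1231 in control roots. In PEG leaves the family held 15432, 23274 and 19798 counts, and in control leaves 26159, 25439 and 22541. Every leaf library held more miR156 counts than any root library. These counts are not all of guide strands. The 3′ arm name miR156i-3p_1, described below, took 2.93% to 9.22% of them in roots and 17.8% to 38.6% in leaves.

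As counts per 1000000 microRNA counts (CPM), scaled between libraries by the trimmed mean of M-values (TMM), miR156 averaged 1820 ± 552 in PEG roots and 1655 ± 756 in control roots, against 5598 ± 1172 in PEG leaves and 6125 ± 1270 in control leaves (SD, n = 3 each). Roots were lower than leaves under PEG (log2 fold change of -1.62 with an SE of 0.41 and a 95% interval of -2.51 to -0.73, adjusted p = 0.0037 by edgeR's quasi-likelihood test with Benjamini-Hochberg adjustment over 124 microRNA families). In control seedlings the log2 fold change between roots and leaves was -1.89 (SE 0.41 and interval -2.79 to -0.99, adjusted p = 0.0011 by edgeR). Root and leaf libraries overlapped in neither treatment, as in 82.3% of families under PEG and 79.8% in control seedlings.

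These organ calls stand against a background in which most families differed. Of the 124 families tested, 70.2% passed the threshold between roots and leaves under PEG and 79.8% in control seedlings, the lower ones being 31.5% and 38.7% of all. The median log2 fold change of the 34 known families was -1.45 under PEG and -1.58 in control seedlings, and miR156 stood 16th from the lowest of the 34 in both, near that median.

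The organ call for miR156 depended on what the counts were scaled to. As a percentage of known microRNA counts alone, miR156 held 1.19%, 0.802% and 1.18% in PEG roots, 1.46%, 1.55% and 0.998% in control roots, 0.621%, 0.883% and 0.591% in PEG leaves, and 0.934%, 0.868% and 0.729% in control leaves. On that basis PEG roots and PEG leaves overlapped, and the control root libraries all lay above the control leaf libraries. Fitted over known microRNAs alone, which raised the median of the known families by 1.45 under PEG and 1.72 in control seedlings on the log2 scale, the log2 fold change of miR156 was -0.18 (adjusted p = 0.597) and -0.24 (adjusted p = 0.439, edgeR), so neither organ call was kept. Scaled to total microRNA counts, the value under PEG was -1.19 (adjusted p = 0.0519, edgeR).

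The miR157 family, whose members also target SPL messenger RNAs, held 4750, 2549 and 5239 counts in PEG roots and 1696, 3704 and 171 in control roots. In PEG leaves it held 2488, 5395 and 7965 counts, and in control leaves 2641, 4969 and 1599. The groups overlapped in both organs, and control root library 3 was far below the rest.

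Mean TMM-scaled CPM of miR157 was 1357 ± 466 in PEG roots and 784 ± 636 in control roots, and 1508 ± 757 in PEG leaves and 747 ± 433 in control leaves (SD, n = 3 each). Unlike miR156, miR157 did not pass the test between organs, with a log2 fold change of -0.15 (interval -1.73 to 1.42, adjusted p = 0.838) under PEG and 0.07 (interval -1.50 to 1.65, adjusted p = 0.931, edgeR) in control seedlings. It stood 26th from the lowest of the 34 known families in both organ comparisons. Scaled to known microRNAs alone, miR157 reached 1.32 on the log2 scale under PEG (adjusted p = 0.0515, edgeR) and was called higher in control roots than in control leaves (1.59, adjusted p = 0.0250, edgeR).

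The miR172 family, the repressors of AP2-like factors, was scarce in every library. It held 82, 221 and 210 counts in PEG roots and 100, 110 and 59 in control roots, against 44, 56 and 33 in PEG leaves and 42, 77 and 53 in control leaves. On the scale of TMM-scaled CPM it averaged 54.9 ± 23.8 in PEG roots and 44.4 ± 4.39 in control roots, and 12.8 ± 3.56 in PEG leaves and 14.7 ± 6.20 in control leaves (SD, n = 3 each). On this scale every root library lay above every leaf library. Control root library 3 had the smallest TMM factor of all libraries (0.496). In unscaled CPM of microRNA counts control roots held 46.3, 45.1 and 21.1, the last close to the 20.9 of control leaf library 2.

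miR172 was higher in roots than in leaves under PEG (log2 fold change of 2.10 with an SE of 0.62 and an interval of 0.77 to 3.44, adjusted p = 0.0090 by edgeR). It was also higher in roots in control seedlings (1.60 with an SE of 0.61 and an interval of 0.29 to 2.91, adjusted p = 0.0275 by edgeR). Families called higher in roots made up 38.7% of all 124 under PEG and 41.1% in control seedlings. Among the 34 known families miR172 stood 31st from the lowest under PEG and 30th in control seedlings. The call in control seedlings was lost without control leaf library 1 (log2 fold change 1.29, adjusted p = 0.0825) and with scaling to total microRNA counts (1.30, adjusted p = 0.0837) or to all reads (1.22, adjusted p = 0.0750, edgeR). Scaled to known microRNAs alone the log2 fold change was 3.57 under PEG and 3.42 in control seedlings.

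**Figure D2:**
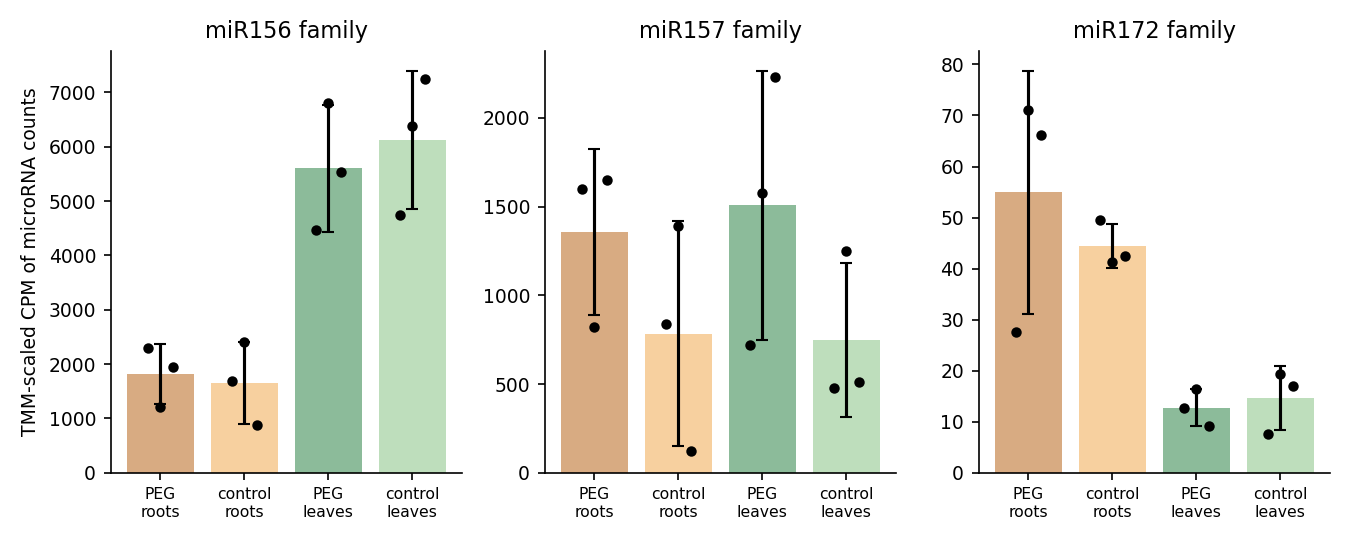
TMM-scaled CPM of microRNA counts (linear axes) of the miR156, miR157 and miR172 families in PEG roots, control roots, PEG leaves and control leaves, with group means as bars, SD as error bars (n = 3) and libraries as points. miR156 averages 1820 and 1655 in PEG and control roots against 5598 and 6125 in PEG and control leaves, and its organ calls are lost with scaling to known microRNAs alone, while miR172 is higher in roots and miR157 overlaps between organs.

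PEG changed none of the 3 families past the threshold. In roots the log2 fold change of PEG over control was 0.14 for miR156 (interval -0.73 to 1.01, adjusted p = 0.847), 0.79 for miR157 (interval -0.79 to 2.37, adjusted p = 0.540) and 0.31 for miR172 (interval -0.97 to 1.59, adjusted p = 0.737, edgeR). In leaves it was -0.13 for miR156 (interval -1.0 to 0.74, adjusted p = 0.892), 1.01 for miR157 (interval -0.58 to 2.60, adjusted p = 0.484) and -0.20 for miR172 (interval -1.49 to 1.09, adjusted p = 0.892, edgeR). Of all 124 families 0% passed in roots, where 19 or 15.3% had an unadjusted p under 0.05, and 3.23% passed in leaves. None of the 3 families had an unadjusted p under 0.05 in either organ, and DESeq2 and limma voom called none of them. The upper bounds lay past a doubling for miR157 and miR172 in both organs and for miR156 in roots (1.01). Increases of that size therefore cannot be told apart from no change with these libraries. The lower bound for miR172 in leaves (-1.49) lay past a halving, so the same holds for such a decrease. The difference of the PEG effects, roots minus leaves, was 0.27 for miR156, -0.22 for miR157 and 0.50 for miR172, none past the threshold (adjusted p = 0.809, 0.960 and 0.746 by edgeR), as for 0% of families.

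The proportion of miR157 to miR156 names also varied. miR157 made up 41.1%, 40.2% and 45.9% of miR156 plus miR157 counts in PEG roots and 33.3%, 36.7% and 12.2% in control roots. It made up 13.9%, 18.8% and 28.7% in PEG leaves and 9.17%, 16.3% and 6.62% in control leaves. All PEG root libraries lay above all control root libraries, whereas PEG and control leaves overlapped.

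The mean share was 42.4% ± 3.05 in PEG roots and 27.4% ± 13.3 in control roots, and 20.5% ± 7.54 in PEG leaves and 10.7% ± 5.04 in control leaves (SD, n = 3 each). Over both treatments it was 19.3 percentage points higher in roots than in leaves (exact permutation p = 0.01 with treatments as strata). With organs as strata it was 12.4 percentage points higher under PEG than in control seedlings (exact permutation p = 0.01). Adjusted over 7 comparisons both p-values were 0.035, but this share was computed after the values of both families had been seen, so the tests describe these libraries and do not stand as an independent finding. These counts include the 3′ arm name miR156i-3p_1, which took 1.85% to 6.85% of them in roots and 14.9% to 30.1% in leaves. Without passenger-arm names the share was 15.9 points higher in roots than in leaves (exact permutation p = 0.02) and 15.3 points higher under PEG than in control seedlings (exact permutation p = 0.005). Within one organ the PEG difference was 15.0 points in roots (exact permutation p = 0.1) and 9.75 points in leaves (exact permutation p = 0.2). Without control root library 3, whose miR157 sum was 171 counts, the difference was 7.39 points in roots and 8.57 points over both organs (exact permutation p = 0.02).

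Single names of miR156 varied widely between libraries. The unlettered name miR156 held 179, 928 and 86 counts in PEG roots and 1393, 109 and 588 in control roots. In PEG leaves it held 1848, 1002 and 2847 counts, against 12373, 4605 and 9675 in control leaves. PEG leaves thus lay wholly below control leaves, while the root groups overlapped.

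The mean of that name, in TMM-scaled CPM of named features, was 270 ± 130 in PEG leaves and 1158 ± 545 in control leaves (SD, n = 3 each). The log2 fold change was -2.10 with an SE of 1.04 and an unadjusted p of 0.0708 by edgeR, which is not past the threshold. No member name passed in PEG versus control in either organ, against 0% of all 10604 features in leaves and 2.17% in roots, and none passed for the difference of the PEG effects, against 2.03%. DESeq2 and limma voom also called 0 of the member names. An unadjusted p under 0.05 was reached by 4 member names in leaves (miR156_2, miR156f-5p, miR156k and miR156q), by 0 in roots and by 0 for the difference. Over the 219 tested microRNA names 18.7% reached it in leaves, 17.4% in roots and 18.7% for the difference, and over all features 3.6%, 11.8% and 10.2%. In leaves 2 of the 15 tested names, miR156 and the very scarce miR172a_2, did not overlap between PEG and control. There 11.7% of all features and 26% of all tested microRNA names did not overlap. In roots all 15 overlapped, where 9.33% of all features and 25.1% of microRNA names did not.

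The name miR156a-5p, which includes the sunflower names han-miR156a and han-miR156b, held 3569, 1472 and 3093 counts in PEG roots and 16, 4672 and 115 in control roots. It held 489, 3276 and 1425 counts in PEG leaves and 875, 363 and 43 in control leaves. The control root libraries thus spanned from near 0 to the highest count of all, and no comparison separated its groups. It led the miR156 family in 4 of 6 root libraries, with 38.9% to 73.2% of the family's counts, and in none of the 6 leaf libraries.

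The name miR156k was present mostly in single libraries of a group. It held 1177, 4 and 0 counts in PEG roots, 1017, 3 and 0 in control roots, 0, 7665 and 15 in PEG leaves, and 2, 4 and 0 in control leaves. In PEG leaf library 2 it made up 32.9% of the miR156 counts, more than any other name there. miR156q was similar in PEG leaves, with 4368, 267 and 139 counts, against 218, 160 and 130 in control leaves.

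Within-group variation of names and sums was compared as the coefficient of variation (CV, the SD over the mean) of unscaled CPM of microRNA counts. Over the 11 tested miR156 names the median CV was 38.0% in PEG roots, 70.4% in control roots, 59.7% in PEG leaves and 61.0% in control leaves. The CV of the miR156 sum was 21.3%, 70.6%, 26.1% and 14.6% in the same groups. The sum was thus steadier than its typical name in 3 of the 4 groups, the exception being control roots.

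**Figure D3:**
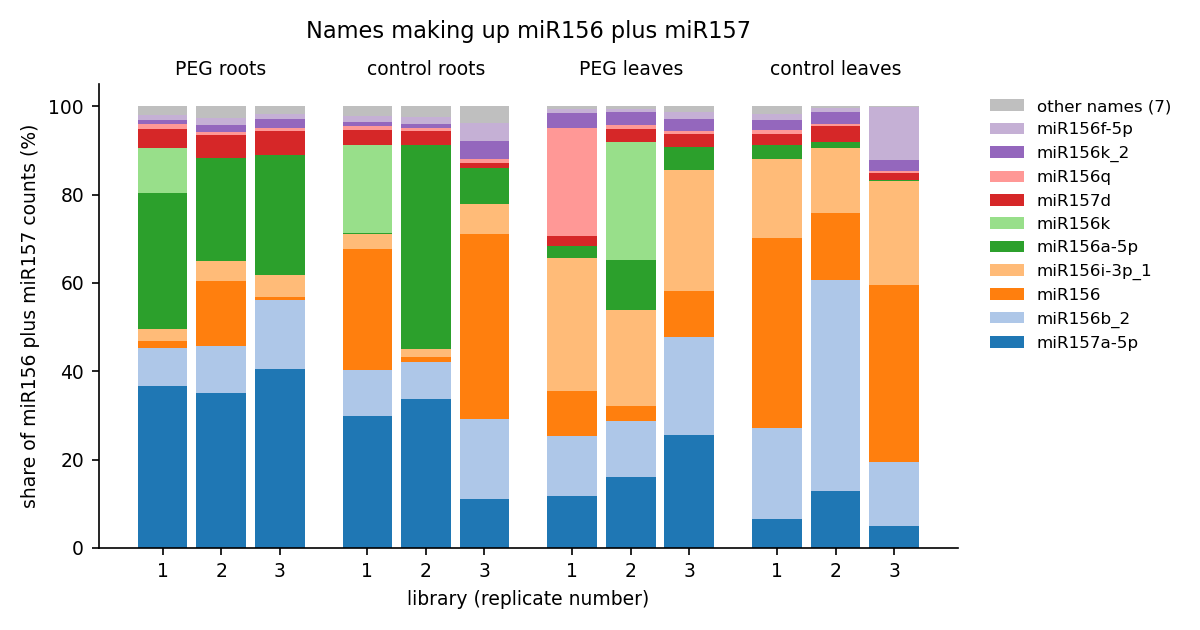
Share of each name in the miR156 plus miR157 counts of each library (percent, stacked to 100), with the names beyond the 10 most abundant in grey. miR157a-5p and miR156a-5p take more of most root libraries than of leaf libraries, the unlettered miR156 takes 43.0% and 40.1% of control leaf libraries 1 and 3, and miR156k and miR156q each swell in single libraries.

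The smallest p-values among member names, in both organ comparisons, belonged to miR156i-3p_1, a name of the 3′ arm. The guide of miR156 comes from the 5′ arm of the hairpin, and the 3′ arm is its passenger strand, usually degraded. miR156i-3p_1 held 311, 290 and 570 counts in PEG roots and 177, 187 and 96 in control roots, against 5390, 6191 and 7633 in PEG leaves and 5203, 4517 and 5660 in control leaves. Every leaf library was far above every root library.

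In TMM-scaled CPM of named features miR156i-3p_1 averaged 95.7 ± 32.6 in PEG roots and 72.7 ± 8.63 in control roots, and 914 ± 170 in PEG leaves and 662 ± 101 in control leaves (SD, n = 3 each). It was lower in roots than in leaves under PEG (log2 fold change -3.26, SE 0.32, adjusted p = 0.0006) and in control seedlings (-3.19, SE 0.32, adjusted p = 0.0004, edgeR, adjusted over 10604 features). Both calls were kept under all 19 alternatives tried, with log2 fold changes between -4.32 and -3.09. A fit over known microRNAs alone was not among them. Set against known microRNA counts, every root library still lay below every leaf library for this name.

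Set against the other miR156 and miR157 names of the same library, which are 5′ arm names or names with no arm given, the 3′ arm name was far more prominent in leaves. There were 36.2, 20.8 and 19.0 counts of the other names per count of miR156i-3p_1 in PEG roots and 27.8, 53.0 and 13.6 in control roots. In PEG leaves there were 2.32, 3.63 and 2.64, and in control leaves 4.54, 5.73 and 3.27. The lowest root value was above the highest leaf value, and this comparison within libraries does not depend on scaling. It was set up after the values were seen and is given without a test.

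**Figure D4:**
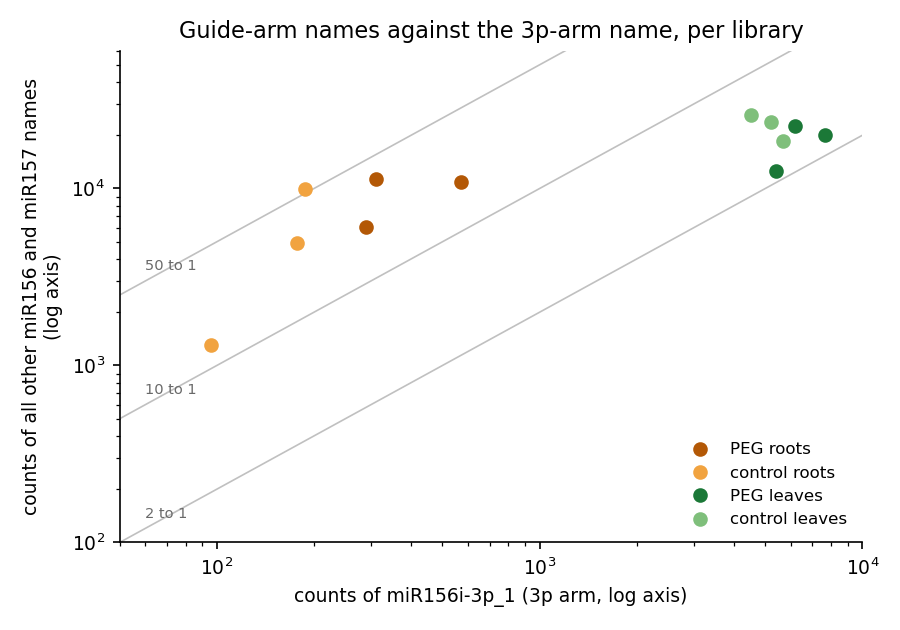
Counts of all other miR156 and miR157 names against counts of the 3′ arm name miR156i-3p_1 in each of the 12 libraries (both axes log), with grey lines of constant ratio. Root libraries lie between 13.6 and 53.0 counts per count of the 3′ arm name and leaf libraries between 2.32 and 5.73.

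Of the 15 tested member names, 2 passed between roots and leaves under PEG, miR156i-3p_1 and miR156k_2, and 4 in control seedlings, where miR156b_2 and miR172a_2 were added. miR172a_2 had 10 or more counts in 4 root libraries and 0 leaf libraries, so it entered the test only through the organ where it was high, and its call, lost in 5 of 19 alternatives, is a description. Over all 10604 features 16.5% passed under PEG and 23.8% in control seedlings, and over the tested microRNA names alone 44.7% and 52.5%. The members' shares, 2 and 4 of 15, lay near those of all features and below those of microRNA names. With so few names, these counts do not set the members apart. Under PEG libraries did not overlap between organs for 3 of the 15 names. Of these miR156i-3p_1 and miR156k_2 were lower in roots and miR156h was higher (mean CPM 17.6 against 2.29 in leaves). In control seedlings 5 did not overlap, with miR156, miR156b_2, miR156i-3p_1 and miR156k_2 lower in roots and miR156_2 higher (26.8 against 7.72). In unscaled CPM of microRNA counts miR156_2 overlapped (19.0, 42.3 and 11.4 in control roots, 14.8, 27.2 and 7.31 in control leaves). Over the tested microRNA names 62.6% under PEG and 65.3% in control seedlings did not overlap, and over all features 38.5% and 44.8%. With the replicate number as a block, 1 of 15 passed in control seedlings, namely miR156i-3p_1.

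Besides miR156i-3p_1, miR156k_2 passed in both treatments. It held 114, 102 and 222 counts in PEG roots and 49, 104 and 57 in control roots, against 605, 830 and 762 in PEG leaves and 704, 855 and 594 in control leaves. Its log2 fold change, roots over leaves, was -1.55 under PEG (adjusted p = 0.0285) and -1.39 in control seedlings (adjusted p = 0.0361, edgeR). On the TMM scale neither treatment showed overlap. The call was lost with the block (-1.57 and -1.49, adjusted p = 0.0615 in both) and in 5 of the other 18 alternatives each. No fit of names over known microRNAs alone was made, the scaling that removed the organ calls of the miR156 family. Set against known microRNA counts, root and leaf libraries of miR156k_2 overlapped in both treatments.

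The name miR156b_2 passed in control seedlings alone, and the organ effects of PEG and control seedlings were not shown to differ. It held 998, 675 and 1789 counts in PEG roots and 524, 840 and 252 in control roots, against 2449, 3644 and 6153 in PEG leaves and 5907, 14552 and 3514 in control leaves. Its log2 fold change, roots over leaves, was -1.05 under PEG (adjusted p = 0.207, edgeR) and -2.07 in control seedlings (SE 0.56, adjusted p = 0.0214, edgeR), and the difference of effects did not pass (adjusted p = 0.844, edgeR). The call in control seedlings was lost in 5 of 19 alternatives. Among these were limma voom (-1.86, adjusted p = 0.0597) and the replicate block (-2.04, adjusted p = 0.0561, edgeR). Another was the fit without control leaf library 2, the highest, where the value was -1.37 (adjusted p = 0.0810, edgeR). Set against known microRNA counts, its control root and control leaf libraries overlapped.

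A single name dominated miR157. miR157a-5p led its family in all 12 libraries, with 87.1% to 91.8% of miR157 counts in roots and 71.6% to 89.3% in leaves. It held 4234, 2221 and 4613 counts in PEG roots and 1524, 3402 and 156 in control roots, against 2084, 4573 and 7116 in PEG leaves and 1892, 3882 and 1195 in control leaves. Among the names of both families it was the most abundant in 4 of 6 root libraries and in no leaf library. miR157d held 516, 328 and 626 counts in PEG roots, 172, 302 and 15 in control roots, 404, 822 and 849 in PEG leaves, and 749, 1087 and 404 in control leaves. Neither name passed in any comparison.

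The names behind miR172 differed between organs. miR172a_2 held 2, 185 and 158 counts in PEG roots and 83, 0 and 43 in control roots, against 5, 4 and 2 in PEG leaves and 0, 0 and 1 in control leaves. miR172a_3 held 5, 12 and 26 counts in PEG roots and 9, 12 and 9 in control roots, against 32, 48 and 23 in PEG leaves and 38, 69 and 46 in control leaves. In leaves miR172a_3 led the family in all 6 libraries with 69.7% to 90.5% of its counts, and in roots it led in none.

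Roots were led by different names in different libraries. miR172a_2 led in 4 of the 6, with 72.9% to 83.7% of miR172 counts. In control root library 2, where miR172a_2 was at 0, miR172c_2 held 89 counts or 80.9%, and in PEG root library 1 miR172e-3p_1 held 71 counts or 86.6%. miR172c_2 held 1, 6 and 9 counts in PEG roots and 1, 89 and 0 in control roots, and at most 2 in any leaf library. miR172e-3p_1 held 71, 6 and 6 counts in PEG roots and 0, 2 and 3 in control roots, and likewise at most 2 in any leaf library.

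Summed over the 3 libraries of a group, miR172a_2 had 345 counts in PEG roots and 11 in PEG leaves, a ratio of CPM of 49.2 with an exact counting interval of 27.2 to 99.6. In control seedlings the sums were 126 in roots and 1 in leaves, a ratio of CPM of 193 with an interval of 34.1 to 7698. These ratios describe a name that reached the count minimum through root libraries alone. The intervals in this paragraph cover counting error of the sums and leave out the spread between libraries. Its root and leaf libraries overlapped in both treatments, with 2 counts in PEG root library 1 and 0 in control root library 2. For miR172a_3 the ratio of roots to leaves, per microRNA count, ran the other way. It was 0.656 (interval 0.448 to 0.944) under PEG and 0.301 (interval 0.196 to 0.447) in control seedlings. Under PEG its libraries overlapped in unscaled CPM (1.90, 5.42 and 10.4 in roots, 9.28, 13.8 and 4.99 in leaves). Set against known microRNA counts alone, the direction turned, and its summed counts were relatively higher in roots in both treatments. Roots and leaves did not separate for this name on the TMM scale, where its log2 fold changes were -0.50 and -0.35, neither past the threshold. Because these names are borrowed and can be near-identical, a change of leading name cannot be told apart from a shift of reads between similar names.

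**Figure D5:**
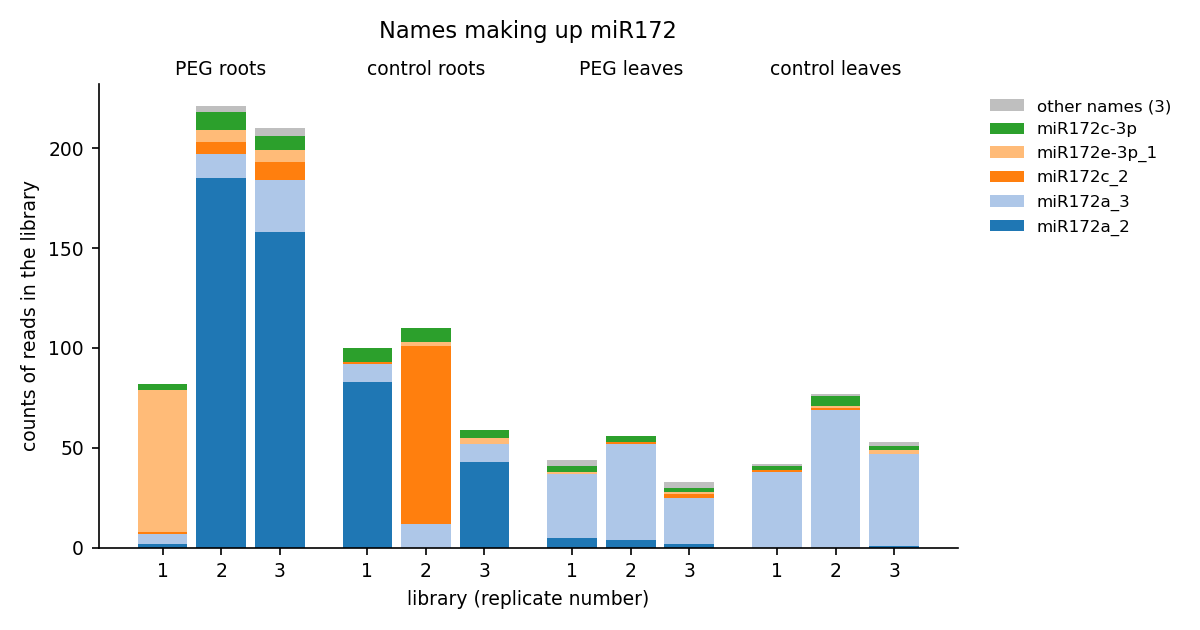
Counts of each miR172 name in each library (linear axis, stacked from 0), with the 3 scarcest names in grey. All 6 leaf libraries are led by miR172a_3, whereas root libraries are led by miR172a_2 in 4 cases, by miR172c_2 in control root library 2 and by miR172e-3p_1 in PEG root library 1.

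Other microRNA families of leaf development and phase change were taken from a list of 6, of which 5 were tested. The remaining one, miR529, had no entry among the microRNA names. Between PEG and control 0 of 5 passed in roots and 0 of 5 in leaves. Between roots and leaves 3 of 5 passed under PEG, against 70.2% of all 124 families, and 5 of 5 in control seedlings, against 79.8% (edgeR). miR319, a regulator of TCP transcription factors, was higher in roots under PEG (log2 fold change 1.84) and in control seedlings (2.93), and so was miR390, which sets off tasiRNA production (1.69 and 1.46). Both stayed positive under every scaling tried, although miR390 in control seedlings missed the threshold with total microRNA counts (adjusted p = 0.0714, edgeR) and with all reads (adjusted p = 0.0728, edgeR). miR396, which targets growth-regulating factors, was lower in roots under PEG (-1.71) and in control seedlings (-0.94), but with known microRNAs alone it was -0.25 and not called under PEG (adjusted p = 0.471) and 0.70 and called higher in control seedlings (adjusted p = 0.0384, edgeR). miR159, which targets GAMYB-like factors, was lower in control roots (-1.11) and miR164, which targets NAC factors, likewise (-1.12), and with known microRNAs alone both turned positive (0.65 and 0.73). Under PEG miR159 (-0.67) and miR164 (-0.60) did not pass, and with known microRNAs alone they were 0.77 and 0.83, miR159 being called higher (adjusted p = 0.0250, edgeR).

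Likeness of pattern was measured as Pearson's r of log2(CPM + 1) over the 12 libraries, among 117 microRNA families with a mean of at least 10 CPM. It is a description, since the libraries share the split by organ. miR156 was most like miR166 (0.963), miR398 (0.943) and novel_mir1 (0.943). miR157 was most like miR399 (0.806), novel_mir76 (0.700) and novel_mir55 (0.648). miR172 was most like novel_mir15 (0.938), novel_mir24 (0.926) and miR390 (0.921).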

How the data were processed

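Small RNA libraries of PEG and control roots and leaves, 3 per group, were compared. The authors deposited 1 table with raw read counts per feature and the same values as TPM, per the file headers. The deposited TPM equalled the count scaled to 1000000 per column in 99.4% of cells within 0.0051 and was used only for this check. Per the submitters' processing notes, Bowtie2 2.2.9 and Bowtie were used, without a stated role. How reads were mapped, to which build, and which microRNA collection supplied the names was not given in the sources used here. Left out were 3 entries that count exon, intron and intergenic reads, which name no feature and hold 79.7% to 86.0% of counts.

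Counts were fitted over all 12 libraries with edgeR 4.0.16 in R 4.3.3 (TMM factors, quasi-likelihood test, 1 mean per group). The fits covered the 10604 features that reached 10 counts in 3 or more libraries, and 124 microRNA families as sums over names, known and predicted. An adjusted p under 0.05 (Benjamini-Hochberg over all of them) counted as a call. For the ratio and the shares, libraries were permuted exactly (two-sided). Names printed in full were the 3 with the highest mean CPM per family and those called without overlap. A few further names were picked after their values were seen. The members, the families and the list of related families were chosen with earlier results of these data known.

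Same-numbered control root and control leaf libraries deviated together (r = 0.262, 0.225 and 0.249 over features). PEG roots and PEG leaves did not (r = -0.222, -0.166 and -0.207). For PEG leaves and control leaves, which were treated differently, r was -0.354, -0.083 and -0.163. Values of this size therefore cannot show a pairing, and the labels state none. The alternatives tried were DESeq2 1.42.0, limma voom (limma 3.58.1), several scalings, no filter on low counts, a replicate block and leaving out each library. The edgeR fit was also run on simulated counts, with equal mean levels in all groups apart from planted changes and with a fixed spread. That setting is simpler than these data, so it does not show how the fit performs on them. Mature sequences were not analysed here.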

Additional observations from a re-analysis of the deposited data

How the results depend on the processing

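The lower ratio in roots kept its direction under every alternative tried. On the log2 scale, leaving out each library gave -3.60 to -3.02 over both treatments, -3.83 to -2.68 under PEG and -3.84 to -2.86 in control seedlings, and the other alternatives gave -3.68 to -1.46 over both treatments. PEG effects on the ratio gave -0.28 to 0.87 in roots, -0.12 to 0.40 in leaves, -0.057 to 0.52 over both organs and -0.45 to 0.70 for their difference when a library was left out, and -0.00035 in leaves for miR156 alone over miR172. Member names called numbered 2 under PEG, against 4 with TMM over microRNAs alone, 4 with DESeq2, 1 with the replicate block and 1 to 3 when a library was left out, the 1 being without PEG root library 2. In control seedlings they numbered 4, against 6 with DESeq2, 5 with library totals alone or TMM over microRNAs alone, 2 with limma voom, 1 with the replicate block and 1 to 5 when a library was left out. There the count was 1 without control leaf library 2 and 2 without control root library 1, control leaf library 1 or control leaf library 3. The block changed no family call, with organ values for miR156 of -1.59 under PEG and -1.92 in control seedlings. Family organ calls lost were miR156 under PEG with total microRNA counts alone (-1.19, adjusted p = 0.0519, edgeR) and with known microRNAs alone (-0.18), miR156 in control seedlings with known microRNAs alone (-0.24), and miR172 in control seedlings with total microRNA counts (1.30) and with all reads (1.22). miR157 in control seedlings was called with known microRNAs alone (1.59). Uncalled family values changed sign as follows. PEG versus control in roots was -0.34 for miR156 and -0.21 for miR172 with DESeq2 or its size factors, -0.41 and -0.33 with known microRNAs alone, and -0.28 and -0.16 without passenger-arm names. The difference of PEG effects for miR157 was 0.40 with total microRNA counts, 0.16 with all reads, 0.18 with limma voom and 0.28 without passenger-arm names. Roots versus leaves for miR157 was 0.34 (total microRNA counts) and 1.32 (known microRNAs alone) under PEG, and -0.068 (total microRNA counts), -0.16 (all reads), -0.25 (limma voom) and -0.37 (without passenger-arm names) in control seedlings. Leaving out each library moved uncalled PEG effects across 0. In roots these were -0.28 to 0.28 for miR156 and -0.20 to 0.43 for miR172, in leaves -0.28 to 0.011 and -0.51 to 0.14, and for the difference -0.19 to 0.42 (miR156), -0.81 to 0.24 (miR157) and -0.12 to 0.82 (miR172). The uncalled organ values of miR157 also crossed 0, at -0.59 to 0.040 under PEG and -0.53 to 0.66 in control seedlings. The called organ value of miR172 in control seedlings kept its sign, at 1.29 to 1.85, and lost its call without control leaf library 1. The difference of PEG effects on the miR157 share was -2.36 to 9.90 points. The choices without passenger-arm names or miR156k, and all for the miR157 share and the related families, were made after seeing the data. The cause of these changes was not tested. The miR172 family held 33 to 221 counts per library, so its single names rest on few counts.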

Other observations

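Beside the mature names, the table holds Rfam entries for the precursors. The mir-156 precursor entry had 1, 4 and 3 counts in PEG root libraries 1 to 3, 2, 2 and 5 in control roots, 1, 8 and 3 in PEG leaves and 5, 22 and 3 in control leaves. The mir-172 precursor entry had 0, 5 and 0 counts in PEG root libraries 1 to 3, 0, 3 and 0 in control roots, 5, 2 and 2 in PEG leaves and 2, 1 and 2 in control leaves. No comparison was made of either entry.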
